A study of Mus musculus with 16 samples.

Results

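The constant part of Igh, the immunoglobulin heavy chain locus of the mouse, was examined outside its switch regions, as a partner of a fixed DNA break in Myc. The junctions were taken at chr12:114427082-114664838 of mouse genome build mm9, wherever the deposited label was none of Smu, Sg3, Sg1, Sg2b, Sg2a, Se and Sa, the names given to the 7 switch regions. This gave 366 junctions of the 141167 in all libraries, and of 33479 outside chromosome 15, which carries the break. A further 2018 junctions in the same window carried a switch label, so the 366 made up 15.4% of the junctions in the constant part. Of the 366, 358 had no gene label and 8 had a label that joins several switch regions, and no other gene name occurred among them.

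The assay, HTGTS (high-throughput genome-wide translocation sequencing), recovers the DNA ends ("prey") that join to 1 chosen break ("bait"). Here the bait was made by I-SceI, brought in with a GFP-expressing retrovirus, at 25 copies of its site placed in 1 Myc allele (intron 1), in cultured splenic IgM+ B cells of 129sv mice aged 6 to 8 weeks. The groups were ATM-deficient cells (n = 3), WT cells with the ATM inhibitor KU55933 at 10 µM from the time of infection (n = 3) and WT cells (n = 4), all under anti-CD40 at 1 µg/mL and IL4 at 20 ng/mL, infected at 24 h and harvested on day 4, and the libraries labelled ATM-deficient (n = 3) and labelled WT (n = 3) under RP105 at 2 µg/mL, infected at 48 h and harvested on day 5. All 5 groups carry the cassette, and the libraries are separate samples whose mice are not named in the labels, so p-values measure the spread between libraries.

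Each heavy chain constant gene except Cδ is preceded by a switch region, a repetitive stretch of DNA rich in the motif AGCT. During class switch recombination, activation-induced cytidine deaminase (AID) acts on transcribed switch regions, breaks form in Sμ and in a downstream switch region, and the DNA between them is lost, so that another constant gene takes the place of Cμ. Anti-CD40 with IL4 directs switching to Sγ1 and Sε (IgG1 and IgE), whereas RP105 is a surface protein whose ligation makes B cells proliferate. The kinase ATM is activated at double-strand breaks, where it signals damage and helps to hold the broken ends for joining. The locus is transcribed toward the centromere, so that each constant gene lies on the centromeric side of its switch region, with the 3′ regulatory region below Cα.

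The labelled switch junctions set the map. In mm9 they spanned chr12:114661032-114664838 for Sμ, chr12:114599874-114603429 for Sγ3, chr12:114569089-114577072 for Sγ1, chr12:114546265-114552270 for Sγ2b, chr12:114528574-114533822 for Sγ2a, chr12:114512619-114515455 for Sε and chr12:114499378-114501484 for Sα. These spans are the lowest and highest labelled junction, 31.5 kb in all, and rest on 795 junctions for Sμ, 776 for Sγ1 and 405 for Sε but on only 14, 7, 10 and 11 for Sγ3, Sγ2b, Sγ2a and Sα, so a true switch region may reach further than its span. The segments between them, 206 kb in all, are named here by the switch regions at their ends, because no mm9 annotation was used. The upper end of the window is the highest junction labelled Sμ. The last junction below the window, 1 base outside, was labelled Tmem121, the lowest junction counted lay 991 bases inside, the highest lay 11 bases inside the upper end and the next above it lay 5 bases outside.

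The 8 junctions with a joint label are shown first because they differ in kind from the others. All 8 came from libraries of the 454 sequencer, as inferred from the read names, 7 from WT and 1 from ATM-deficient cells under anti-CD40/IL4. The prey alignment of each runs across a gap of 59.6 to 91.4 kb in the reference, between Sγ1 and Sμ or a position close to them in 5 and between Sε and Sγ1 in 3, and the prey position itself lay inside a switch span in all 8. The pair below is the reference sequence on both sides of the gap in 1 of them, a WT library under anti-CD40/IL4 (replicate 4), where 87.0 kb are missing. The plus strand of mm9 is given, with AGCT in capitals.
Sγ1 side, chr12:114576415-114576474: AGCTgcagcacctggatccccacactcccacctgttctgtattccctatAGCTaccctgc
Sμ side, chr12:114663482-114663520: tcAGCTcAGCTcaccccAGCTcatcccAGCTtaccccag
Both sides hold the switch motif, and the stretch between them is absent from the aligned prey. A further 9 junctions without any label lay inside the Sμ span, and the alignments of all 9 lead out across its telomeric end. The remaining 349 junctions lay outside all switch spans.

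Recurrent places were few. The 366 junctions fell on 360 distinct positions, 6 of them found in 2 libraries and none in more. Of the 100-base windows, 6 held at least 5 junctions, and 5 of these lie outside the switch spans, all beside Sγ1 or Sμ. 3 of them are given here, from both flanks, on the plus strand of mm9 with AGCT in capitals.
Telomeric of Sγ1, chr12:114577300-114577399: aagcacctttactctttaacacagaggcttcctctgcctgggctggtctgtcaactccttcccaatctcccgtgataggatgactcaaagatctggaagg
Centromeric of Sμ, chr12:114660700-114660799: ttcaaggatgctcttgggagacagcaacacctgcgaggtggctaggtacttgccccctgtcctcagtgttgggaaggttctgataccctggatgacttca
Centromeric of Sμ, chr12:114660300-114660399: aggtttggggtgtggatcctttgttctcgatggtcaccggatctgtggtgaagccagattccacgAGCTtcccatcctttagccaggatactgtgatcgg
The window beside Sγ1 held 7 junctions of 4 libraries, 238 to 292 bases from the Sγ1 span: 5 from ATM-deficient cells, 1 from WT cells under anti-CD40/IL4 and 1 labelled WT under RP105. The first window beside Sμ held 6 junctions of 4 libraries, 4 of them with KU55933. The second held 5 junctions of 3 libraries, 3 from ATM-deficient cells and 2 with KU55933, all aligned to the minus strand. The 3 came from a single library. The 2 lay at the same position, chr12:114660375, in libraries of 1 sequencing run, as inferred from the read names. Counted once, this position would leave the window below 5 junctions. The same is true of a window not shown, chr12:114578500-114578599, where 2 RP105 libraries of 1 run share a position.

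The switch motif was sparse around these junctions. AGCT reads the same on both strands. It occurred in the first 50 prey bases of 25.4% of the junctions outside switch labels (81 of 319 with that many aligned bases), against 75.5% of the switch junctions (1319 of 1747). For junctions in the last 1 Mb of chromosome 12 on the centromeric side of Igh the share was 26.0% (70 of 269), and for all other junctions outside chromosome 15 it was 22.0% (5818 of 26408). The 319 include junctions inside a switch span. Outside the spans, 23 of 116 junctions within 2 kb of a span had the motif (19.8%), and 42 of 186 beyond 2 kb (22.6%). Over the reference bases that the alignments cover, AGCT occurred 5.56 times per kb outside the switch spans and 31.7 times per kb inside them, and it was found in 49 of 126 fully covered 100-base windows outside and 104 of 123 inside. These shares describe the sequence and were not tested.

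Before the values, 3 features of the libraries bear on them. The share of all junctions within 1 Mb of the break averaged 87.3% for the label ATM-deficient and 64.2% for the label WT under RP105, whereas under anti-CD40/IL4 it was 54.6% in ATM-deficient cells, 54.1% with KU55933 and 78.7% in WT cells, so the 2 genotype labels differ in opposite directions under the 2 stimuli, and the RP105 groups are named here by their labels. Sequencer and run were inferred from the form and the first part of the read names. By these, the ATM-deficient and WT libraries under anti-CD40/IL4 were read on the 454 sequencer and all others on the MiSeq, so the effect of KU55933 and that of the sequencer cannot be told apart. Some libraries of 1 run share junctions at the same position and strand: replicate 3 labelled ATM-deficient and replicate 3 labelled WT under RP105 share 142, which is 12.3% of the smaller, and KU55933 replicates 1 and 2 share 186, or 5.16% of the smaller. Libraries of different runs shared at most 4.10%. Among the junctions of the constant part outside switch regions, the first pair shared 3 and the second pair 2, and without all that are shared within a run the 7 edgeR differences of the whole stretch and the 3 differences in its share of the constant part kept their sign and their side of the threshold. Junctions outside chromosome 15 numbered 1912 to 2714 per ATM-deficient library, 3606 to 5604 with KU55933, 731 to 1509 in WT, 586 to 1156 labelled ATM-deficient and 956 to 2496 labelled WT under RP105.

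Under anti-CD40/IL4, the difference from WT in the constant part outside switch regions did not pass edgeR's test, in ATM-deficient cells or with KU55933. The share of junctions there was nevertheless higher in every library of these 2 groups than in any WT library. How many other parts of the genome separate the groups in this way was not counted. The share in the named switch regions was lower in both groups than in WT, and this difference passed edgeR's test. Outside switch regions, the ATM-deficient libraries held 37, 45 and 21 junctions, which were 1.69%, 1.66% and 1.10% of the junctions outside chromosome 15. The libraries with KU55933 held 58, 56 and 75, or 1.61%, 1.03% and 1.34%. The WT libraries held 12, 7, 11 and 6, or 0.918%, 0.769%, 0.729% and 0.821%. The group means were 1.48% ± 0.332 (SD, n = 3) in ATM-deficient cells, 1.33% ± 0.289 (n = 3) with KU55933 and 0.809% ± 0.0817 (n = 4) in WT. With so few junctions the counting error is wide: the 95% Wilson interval ran from 0.719% to 1.67% for ATM-deficient replicate 3 and from 0.408% to 1.30% for WT replicate 3. Such intervals and floors cover counting error only.

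In edgeR's quasi-likelihood test over 27 parts of the genome, the difference between ATM-deficient and WT cells was 0.89 (log2, SE 0.34), with an adjusted p of 0.132, where 7.41% of the parts were called in this comparison. It was 0.68 (SE 0.32, adjusted p 0.231 by edgeR) for KU55933 against none, where 11.1% were called, and 0.21 (SE 0.25, adjusted p 0.590 by edgeR) for ATM-deficient cells against KU55933, where 14.8% were called. None of the 3 passed the threshold of 0.05. The first depends on the 8 joint labels, 7 of them in WT: without them it was 1.19 (adjusted p 0.0271 by edgeR), and that for KU55933 was 0.99 (adjusted p 0.0508). In the 2 runs that held both ATM-deficient and WT libraries, the log2 ratio of the shares was 1.19 and 0.42. The named switch regions fell in the same fit by 1.43 in ATM-deficient cells (adjusted p 2.33e-08) and by 0.63 with KU55933 (adjusted p 0.000781), both against WT. Chromosome 12 on the centromeric side of Igh rose in this fit by 1.48 in ATM-deficient cells (adjusted p 2.90e-09 by edgeR). With KU55933 it rose by 1.14 (adjusted p 2.64e-07 by edgeR), again against WT. A higher share than in WT was therefore not particular to the constant part.

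Of the junctions in the constant part, the share outside switch regions was 29.4%, 24.1% and 22.6% in the ATM-deficient libraries, 17.6%, 10.6% and 16.4% with KU55933, and 6.86%, 6.80%, 6.01% and 5.77% in WT. The 3 groups did not overlap. The means were 25.3% ± 3.57 (SD, n = 3) in ATM-deficient cells, 14.9% ± 3.76 (n = 3) with KU55933 and 6.36% ± 0.550 (n = 4) in WT. ATM-deficient cells exceeded WT by 19.0 percentage points and KU55933 exceeded WT by 8.51, each with an exact two-sided permutation p of 0.0286, the smallest that 3 against 4 libraries allow, and 0.1 after adjustment over the 7 exact tests made. ATM-deficient cells exceeded KU55933 by 10.5 points (exact permutation p = 0.1, the smallest that 3 against 3 allow; adjusted 0.14). This share depends on the junctions inside switch regions as well as on those outside.

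**Figure D1:**
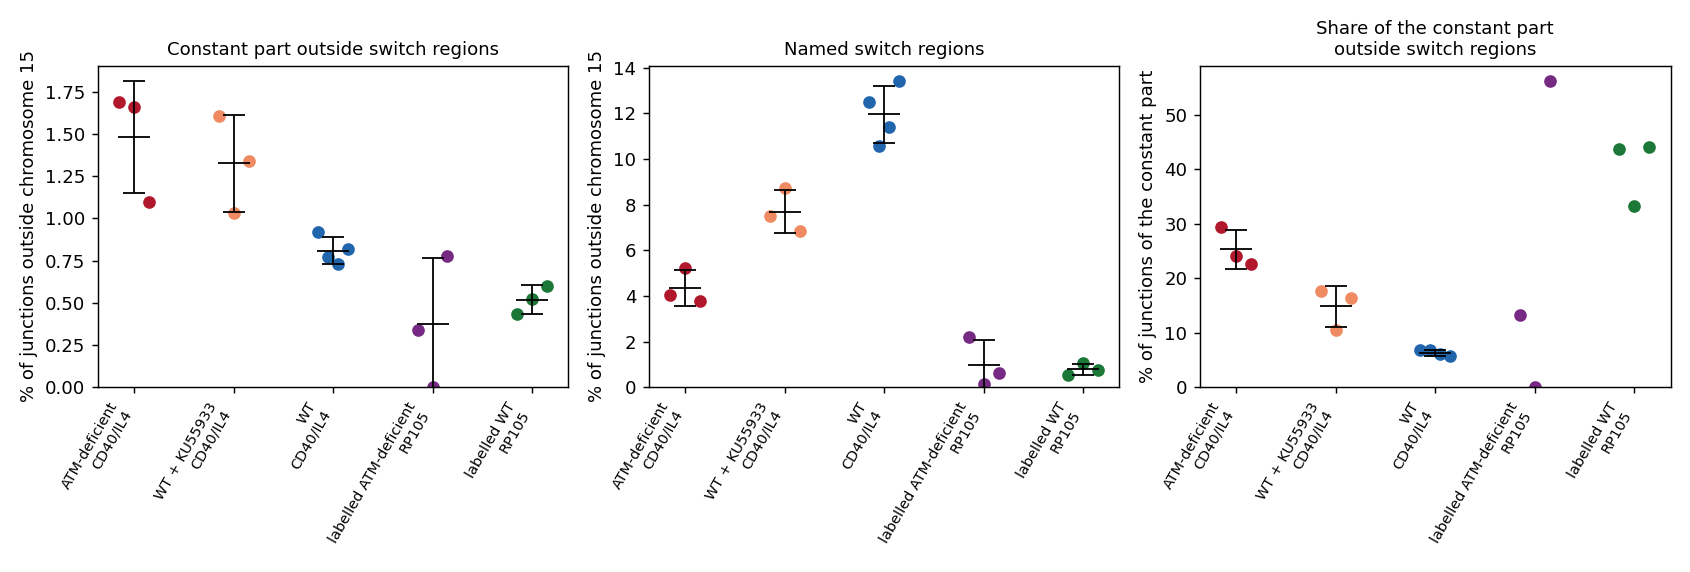
Points are single libraries, bars the mean and SD of a group (none in the right panel for RP105, whose constant parts hold 1 to 34 junctions); the y axes are the percent of junctions outside chromosome 15 in the constant part outside switch regions (left) and in named switch regions (middle), and the percent of the constant part's junctions that lie outside switch regions (right). Under anti-CD40/IL4 the ATM-deficient libraries and those with KU55933 lie above all WT libraries on the left and right and below them in the middle.

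Under RP105 the constant part held few junctions of either kind. The libraries labelled ATM-deficient held 2, 0 and 9 junctions outside switch regions, or 0.341%, 0 and 0.779%, and those labelled WT held 7, 5 and 15, or 0.431%, 0.523% and 0.601%. For the count of 0 among 744, the 95% Wilson interval reaches 0.514%. The groups overlap, and their difference was -0.27 (log2, SE 0.61, adjusted p 0.905 by edgeR, 14.8% of parts called). Its sign turned when only 1 Mb around the break was left out in place of chromosome 15 (0.13) and without replicate 2 labelled ATM-deficient (0.24). Within the 2 shared runs the log2 ratio was -1.80 and 0.37. Against anti-CD40/IL4, the share in the libraries labelled ATM-deficient fell by 1.76 under RP105 (log2, SE 0.48, adjusted p 0.00793 by edgeR, 22.2% called), a call lost without replicate 2 of the RP105 group (-1.25, adjusted p 0.0657), with the sequencing run as a block (-1.51, adjusted p 0.511) and without junctions inside or within 1 kb (-1.40, adjusted p 0.0639) or 2 kb (-1.34, adjusted p 0.119) of a switch span. Sequencer, stimulus, time of infection and day of harvest cannot be told apart here. Among libraries labelled WT the difference was -0.60 (SE 0.45, adjusted p 0.466 by edgeR, 14.8% called). It passed when only 1 Mb around the break was excluded (-1.01, adjusted p 0.0496) and turned sign without junctions inside or within 1 kb (0.27) or 2 kb (0.72) of a switch span. The interaction, the RP105 genotype difference less the one under anti-CD40/IL4, was -1.16 (SE 0.69, adjusted p 0.482 by edgeR, 11.1% called), and without replicate 3 labelled ATM-deficient under RP105 it was -2.67 (adjusted p 0.0478). Pooled, 11 of 32 junctions in the constant part lay outside switch regions for the label ATM-deficient (34.4%, 95% Wilson interval 20.4% to 51.7%) and 27 of 65 for the label WT (41.5%, 30.4% to 53.7%), since the switch regions held only 21 and 38 junctions. These intervals leave out the spread between libraries. By library the counts were 2 of 15, 0 of 1 and 9 of 16 for the label ATM-deficient. For the label WT they were 7 of 16, 5 of 15 and 15 of 34.

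The segments differed in how many junctions they took. Of the 349 outside switch spans, 124 lay between Sγ3 and Sμ, the segment that holds Cμ and Cδ, 65 between Sγ1 and Sγ3 with Cγ3, and 59 between Sγ2b and Sγ1 with Cγ1, against 36 in the 72.3 kb below Sα, which hold Cα and the 3′ regulatory region, and 20 to 24 in each of the other 3. Per kb and per 1000 junctions outside chromosome 15, the ATM-deficient group was densest between Sγ1 and Sγ3 (0.199), where KU55933 had 0.0659 and WT 0.0590. The group with KU55933 was densest between Sγ2b and Sγ1 (0.179), against 0.0698 in ATM-deficient cells and 0.0800 in WT. These are averages over whole segments. Within 2 kb of a switch span, the group with KU55933 had 28 junctions on the centromeric side of Sμ, against 11 on the centromeric and 9 on the telomeric side of Sγ1, and the ATM-deficient group had 9, 2 and 21 in the same places.

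Between Sγ1 and Sγ3 the ATM-deficient libraries held 13, 13 and 5 junctions, those with KU55933 8, 6 and 8, and WT 2, 1, 2 and 1. Relative to depth, the ATM-deficient group exceeded KU55933 by 1.55 (log2, SE 0.46, adjusted p 0.0161 by edgeR over 33 features, 12.1% called). This call was lost without ATM-deficient replicate 1 (adjusted p 0.145) or 2 (0.0543) and without KU55933 replicate 2 (0.0703) or 3 (0.0538), and when junctions within 1 kb of a switch span were left out; sequencer and group cannot be told apart in it. Against WT, ATM-deficient cells differed by 1.71 (SE 0.63, adjusted p 0.0891 by edgeR, 6.06% called). The libraries labelled ATM-deficient under RP105 held 0, 0 and 1 junctions here, and fell by 3.32 against ATM-deficient cells under anti-CD40/IL4 (log2, SE 1.03, adjusted p 0.0193 by edgeR, 18.2% called). Without ATM-deficient replicate 1 under anti-CD40/IL4 the adjusted p was 0.0626, and without replicate 1 or 2 of the RP105 group 0.0857 and 0.0929, and the call was also lost when junctions within 1 kb of a switch span were left out.

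In the 72.3 kb below Sα no junction was found in WT cells under anti-CD40/IL4. The ATM-deficient libraries held 4, 3 and 3 junctions there and those with KU55933 9, 11 and 5. WT held 0 of 4457 junctions there. With a floor of 3 counts put in place of this 0, the pooled share was 2.54-fold higher with KU55933 and 2.18-fold higher in ATM-deficient cells. These ratios take the 25 and 10 junctions of those groups as exact, so they are not lower limits. By edgeR the adjusted p was 0.0206 for KU55933 (12.1% called) and 0.0775 for ATM-deficient cells (6.06% called). The call for KU55933 was lost without WT replicate 1 (adjusted p 0.101), 2 (0.0651) or 3 (0.0852) and without KU55933 replicate 1 (0.0548). The last 1 Mb centromeric of the window also held few WT junctions under anti-CD40/IL4, 14 in all. ATM-deficient cells had 68 in that stretch and KU55933 174. Its mean density per kb, relative to depth, was 0.00315 in WT, 0.00975 in ATM-deficient cells and 0.0123 with KU55933. Whether the segment below Sα differed from that stretch was not tested. With junctions within 1 kb of a switch span left out, this segment and that between Sγ1 and Sγ3 passed the threshold in ATM-deficient cells against WT as well. With all libraries and members, no other segment passed in any comparison. Between Sγ3 and Sμ the ATM-deficient libraries held 10, 13 and 9 junctions, those with KU55933 22, 10 and 30 and WT 3, 1, 2 and 2, which differed by 1.36 (SE 0.68, adjusted p 0.290 by edgeR) for ATM-deficient cells and 1.22 (SE 0.63, adjusted p 0.336) for KU55933, both against WT. Without KU55933 replicate 2 the last of these was 1.62 and passed (adjusted p 0.0463 by edgeR). Between Sγ2b and Sγ1, ATM-deficient cells against KU55933 gave -1.32 (SE 0.59, adjusted p 0.119 by edgeR), and -2.48 without ATM-deficient replicate 2, which passed (adjusted p 0.0440).

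**Figure D2:**
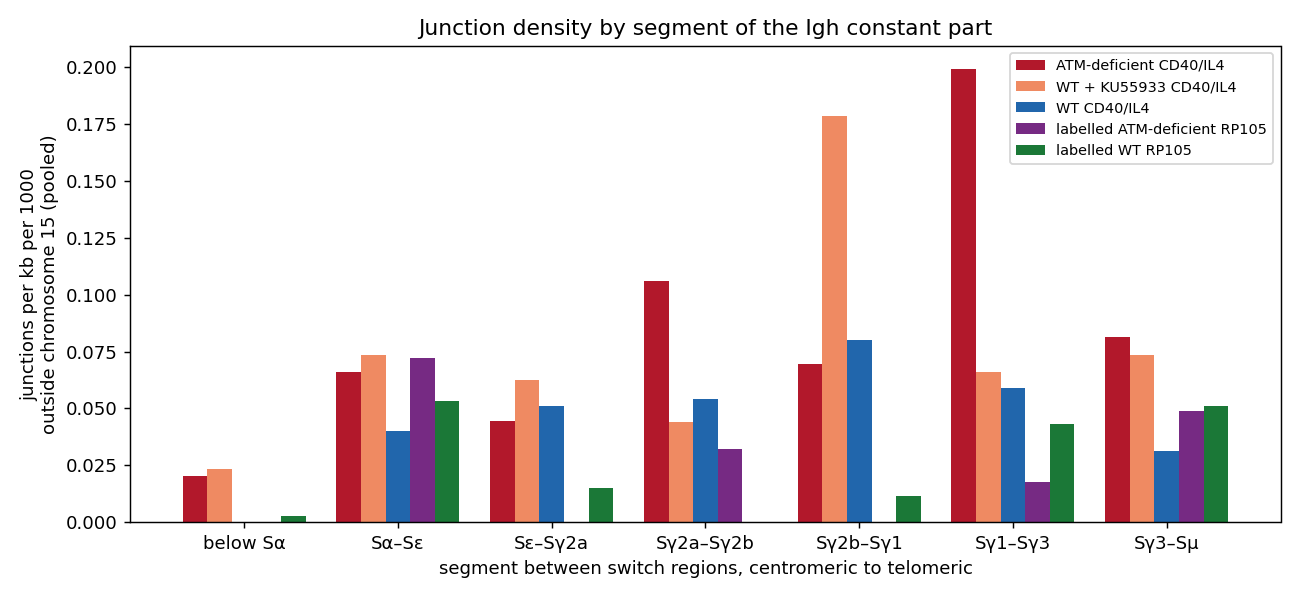
Bars give junctions per kb of segment and per 1000 junctions outside chromosome 15, pooled over the libraries of each group; segments run from the centromeric end (below Sα) to Sμ. The highest bars are ATM-deficient cells between Sγ1 and Sγ3 (0.199) and KU55933 between Sγ2b and Sγ1 (0.179), and WT cells under anti-CD40/IL4 have no bar below Sα.

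Under anti-CD40/IL4, mean density was lower at greater distance from the switch spans in each of the 3 groups. In the first 500 bases it averaged 0.299 ± 0.190 junctions per kb and 1000 in ATM-deficient cells (SD, n = 3), 0.210 ± 0.0110 with KU55933 (n = 3) and 0.266 ± 0.216 in WT (n = 4), values within each other's spread. Beyond 10 kb it was 0.0321 ± 0.00605 in ATM-deficient cells, 0.0228 ± 0.00595 with KU55933 and 0.00601 ± 0.00702 in WT. Of all junctions outside switch labels, 32 of 103 in ATM-deficient cells, 67 of 189 with KU55933 and 4 of 36 in WT lay over 5 kb from a switch span. The share within 1 kb, in libraries with at least 10 junctions and counting those inside a span, was 29.7%, 33.3% and 19.0% in ATM-deficient cells, 15.5%, 23.2% and 26.7% with KU55933, and 41.7% and 63.6% in WT. The exact two-sided permutation p was 0.1 for ATM-deficient cells and for KU55933 against WT, the smallest that 3 against 2 libraries allow, and 0.4 between ATM-deficient cells and KU55933. With junctions inside a span left out, the difference of ATM-deficient cells from WT was -15.2 percentage points (exact permutation p = 0.3).

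**Figure D3:**
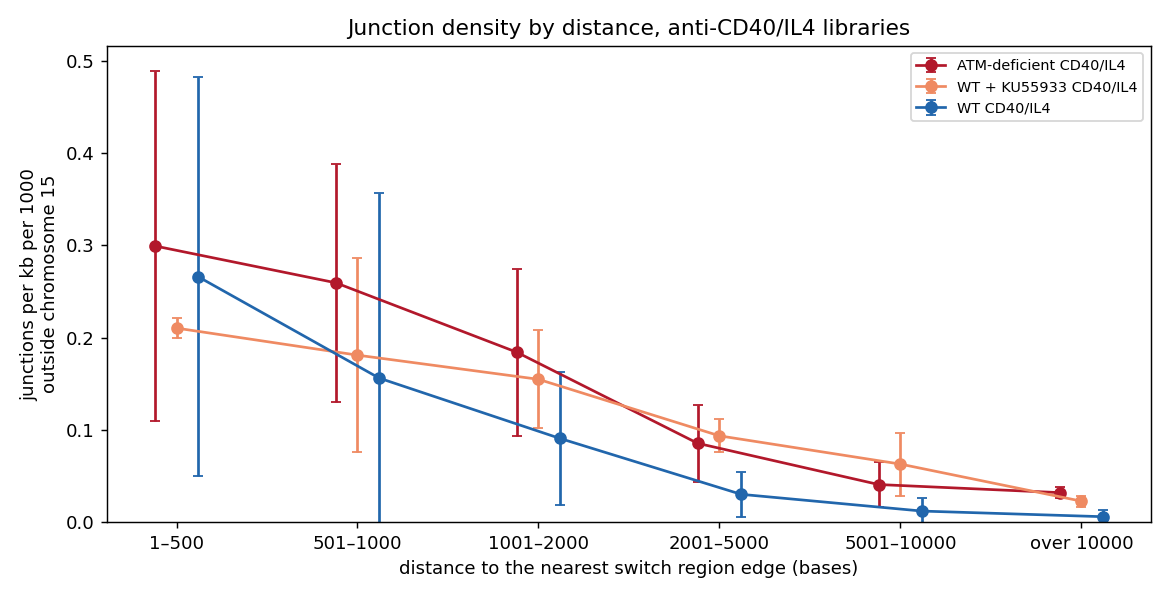
Points and bars give the mean and SD over libraries of junctions per kb and per 1000 junctions outside chromosome 15 (y axis), by distance in bases from the nearest switch span (x axis), for the 3 groups under anti-CD40/IL4. The groups overlap in the first 500 bases, and beyond 2 kb the WT mean lies lowest, at 0.00601 beyond 10 kb.

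The size of the difference from WT varied with the junctions near and inside the switch spans, and whether it passed depended on those inside. Without junctions inside a span or within 1 kb of one, ATM-deficient cells exceeded WT by 1.56 (log2, adjusted p 0.0163 by edgeR) and KU55933 exceeded WT by 1.49 (adjusted p 0.0136), and without those within 2 kb both differences were 1.84 (adjusted p 0.0112 and 0.00541). These settings drop 2 sets at once, and 8 of the 36 WT junctions lay inside a span, against 4 of 103 in ATM-deficient cells and 4 of 189 with KU55933. With the 1 kb flanks left out and the junctions inside spans kept, an alternative added after the data were seen, the differences were 1.06 (adjusted p 0.108 by edgeR) and 0.95 (adjusted p 0.105), and neither passed. With only the junctions inside spans left out, also added after the data were seen, both passed. Under anti-CD40/IL4 the mean density far from switch spans was also higher than in the neighbouring chromosome, which was not tested. Beyond 5 kb the ATM-deficient libraries averaged 0.0345 ± 0.0105 junctions per kb and 1000, those with KU55933 0.0338 ± 0.0122 and WT 0.00767 ± 0.00659, whereas the last 1 Mb centromeric of the window held 0.00975 ± 0.00211, 0.0123 ± 0.00252 and 0.00315 ± 0.00110 in the same groups. The first density was higher in 9 of the 10 libraries under anti-CD40/IL4, the exception being WT replicate 3 with no junction beyond 5 kb, and in 3 of the 6 under RP105. The WT libraries under anti-CD40/IL4 held only 1, 2, 0 and 1 junctions beyond 5 kb, and 6, 3, 3 and 2 in the last 1 Mb. In these libraries a single junction beyond 5 kb was enough for the higher density.

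Among the members close to a switch span, most prey alignments led away from it. The labels may fix part of this: none of the 349 members outside the spans has an alignment that touches a span (0 of 349), while all 9 unlabelled members inside Sμ lead out of it, so a junction just outside a span whose alignment leads in may carry a switch label and not be a member. Within 500 bases the prey led away in 13 of 14 junctions in ATM-deficient cells, 16 of 20 with KU55933 and 7 of 8 in WT, and in 36 of 42 pooled over anti-CD40/IL4 (85.7%, 95% Wilson interval 72.2% to 93.3%). Over 500 and up to 2000 bases away, beyond the length of all but 2 of the 349 alignments, it held for 56 of 85 (65.9%, 55.3% to 75.1%). It held for 92 of 127 within 2 kb (72.4%, 64.1% to 79.5%) and for 94 of 185 beyond 2 kb (50.8%, 43.7% to 57.9%). Between libraries it varied: within 2 kb, 13 of 15, 19 of 22 and 2 of 6 led away in the ATM-deficient libraries, 14 of 18, 16 of 21 and 17 of 27 with KU55933, and 3 of 6, 3 of 4, 4 of 6 and 1 of 2 in WT. Over all libraries, 34 of 46 led away on the centromeric side of Sμ, 31 of 41 on the telomeric side of Sγ1, 11 of 15 on its centromeric side, and 7 of 8 and 8 of 9 on the sides of Sε. The other switch regions had few junctions and did not all show this. On the centromeric and telomeric sides, 1 of 5 and 1 of 2 led away at Sγ3, and 1 of 2 and 0 of 3 at Sγ2b. The counts were 1 of 1 and 2 of 2 at Sγ2a, and 1 of 2 and 1 of 1 at Sα. Of the 41 on the telomeric side of Sγ1, 21 came from ATM-deficient cells and 9 from KU55933, and of the 15 on its centromeric side 2 and 11. Junctions share their libraries, so these shares are descriptions with no test.

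**Figure D4:**
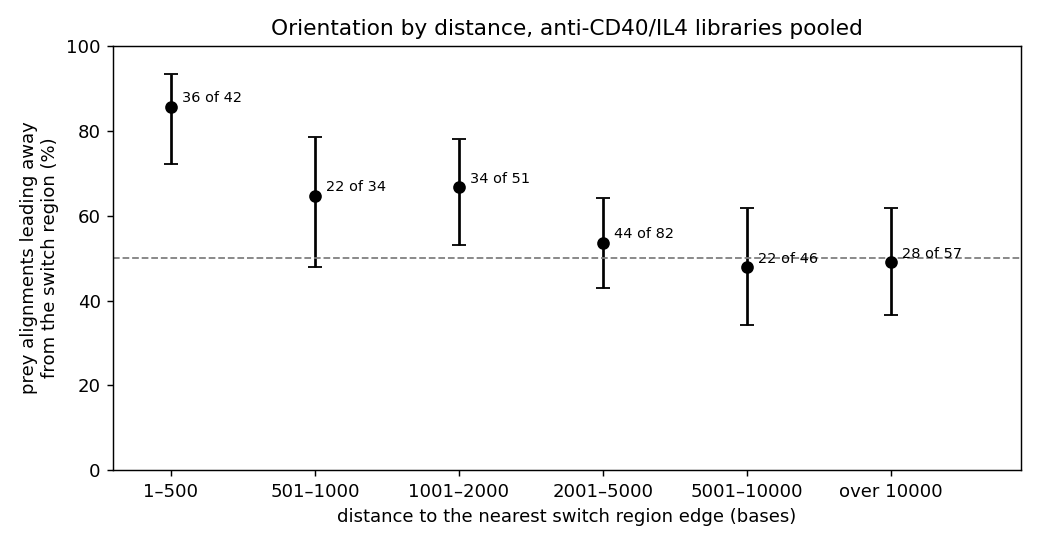
Points give the percent of junctions whose prey alignment leads away from the nearest switch span (y axis) by distance from it in bases (x axis), pooled over the 10 libraries under anti-CD40/IL4, with 95% Wilson intervals; the dashed line is at 50%. The share is 85.7% within 500 bases and 47.8% to 53.7% beyond 2 kb.

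The joints themselves were described by the bases that bait and prey share at the joint. In the junctions outside switch labels, bait and prey overlapped by at least 1 base in 70.9% in ATM-deficient cells (61 of 86 with a readable joint), 63.5% with KU55933 (113 of 178) and 72.7% in WT (24 of 33). In switch junctions of the same groups it was 64.9%, 58.7% and 58.4%. Per library, the share averaged 64.6% outside switch labels and 58.9% in switch regions over the 9 libraries with at least 10 junctions of each, a difference of 5.62 percentage points that was positive in 7 of 9 (two-sided exact sign-flip permutation p = 0.230, adjusted 0.269). With an overlap of at least 2 bases it was 46.6% against 37.4%, a difference of 9.23 points (SD 11.3) that was positive in 8 of 9 libraries (exact permutation p = 0.0391, not adjusted). All other junctions outside chromosome 15 had an overlap of at least 1 base in 61.7% and of at least 2 bases in 40.5%. Inserted bases were found in 17.4% of the junctions outside switch labels in ATM-deficient cells, 16.9% with KU55933 and 15.2% in WT.

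**Figure D5:**
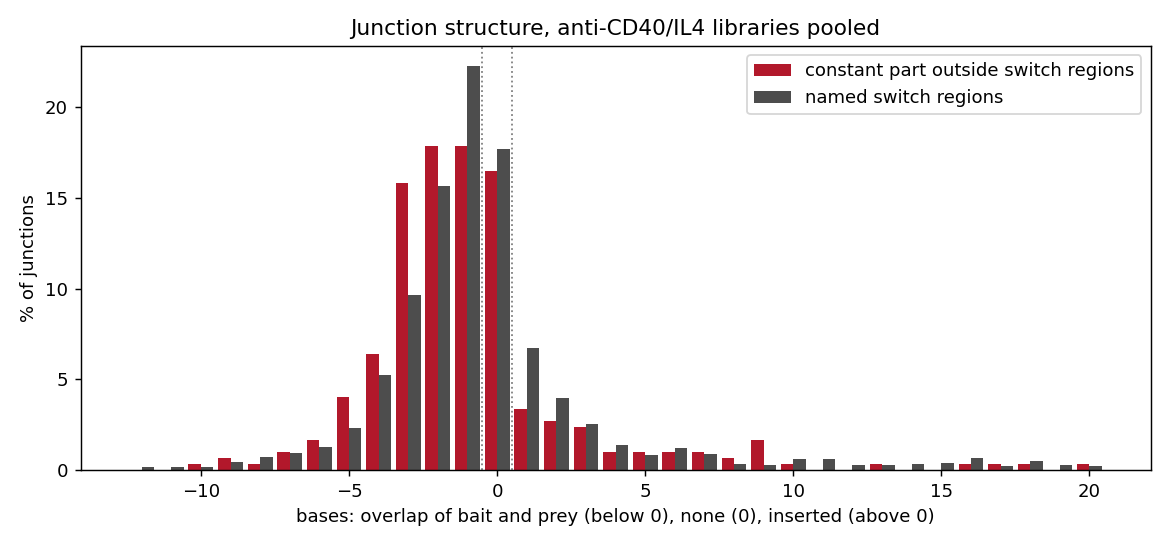
Bars give the percent of junctions (y axis) by the bases bait and prey share (below 0), a direct joint (0) or inserted bases (above 0) on the x axis, pooled over the 10 libraries under anti-CD40/IL4, with junctions in the constant part outside switch regions beside those in named switch regions. An overlap of at least 2 bases was found in 48.8% of the junctions outside switch regions and 37.3% of the switch junctions.

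The protocol sets which junctions can be seen. The DNA was cut with HaeIII, which recognises GGCC, and the far end of the prey alignment lay at such a cut, as read from its last 2 bases, in 74.6% of the junctions outside switch labels and 51.7% of the switch junctions. The switch regions were unlike in this, with 34.3% for Sγ1, 52.1% for Sμ and 84.2% for Sε. The aligned prey was 110 bases long in the median outside switch labels and 120 in switch regions. The part of cut sites in the differences between segments was not tested.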

How the data were processed

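The members, the segments and the tests were chosen with earlier results of these data known. The deposited tables list 1 junction per row with the prey alignment, per the file headers, and the build is mm9 per the submitters' processing notes. The sources used here do not name the aligner or the filters. Per the file headers, the deposited tables of the 454 libraries also hold a PCR count per junction, and all hold an alignment score. Both were described only: the PCR count, present for 139 of the 366 members, had a median of 0 and a highest value of 5.

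The position was the prey base at the joint. Repeated rows (56, of which 53 in ATM-deficient replicate 3), 3 mitochondrial rows and 1 fragment of a broken record were dropped from 141226. The remaining junctions were counted per part of the genome outside chromosome 15, with the constant part outside switch regions whole or split into segments. These whole-number counts were tested with edgeR 4.0.16 (quasi-likelihood, R 4.3.3) on all 16 libraries, with junctions outside chromosome 15 as library size, a minimum of 20 junctions per part and Benjamini-Hochberg adjustment at 0.05. On simulated data for ATM-deficient against WT cells under anti-CD40/IL4, with 27 parts, the test recovered 83.2% of 2-fold and 95.8% of 4-fold changes. All parts were simulated with 1 common spread and segments were not simulated, so these values do not carry over to the segments. Shares per library were compared with exact permutation tests. Overlaps and inserts of at most 20 bases were read. Reference bases came from the deposited alignments, which cover 46426 positions of the window with 0 conflicts. The rule for named items took every gene name among the members, and up to 10 windows of 100 bases with at least 5 members. Alternatives covered normalization (TMM, DESeq2 1.42.0), filters, library size, margins, blocks and left-out libraries.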

Additional observations from a re-analysis of the deposited data

How the results depend on the processing

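For ATM-deficient against WT cells under anti-CD40/IL4, the main log2 difference of 0.89 passed the threshold without members inside or within 1 kb (1.56) or 2 kb (1.84) of a switch span, without joint labels (1.19) and without members inside switch spans (1.19). That for KU55933 against WT passed without members within 1 kb (1.49) or 2 kb (1.84) and without those inside spans (1.01). The RP105 genotype difference turned sign when 1 Mb beside the break was excluded in place of chromosome 15 (0.13) and without replicate 2 labelled ATM-deficient (0.24). RP105 against anti-CD40/IL4 in libraries labelled WT was -1.01 with that exclusion, past the threshold, and turned sign without members within 1 kb (0.27) or 2 kb (0.72). In libraries labelled ATM-deficient it no longer passed without members within 1 kb (-1.40) or 2 kb (-1.34), without the 2 kb flanks alone (-1.44, chosen after seeing the data) and with the run as a block (-1.51). Overlap of at least 2 bases gave 9.23 percentage points. Without members within 1 kb, the segments called numbered 2 for ATM-deficient against WT, 0 for ATM-deficient against KU55933 and 0 for RP105 against anti-CD40/IL4 in libraries labelled ATM-deficient. The cause of these changes was not tested.

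Leaving out 1 library at a time gave 0.80 to 1.04 for ATM-deficient against WT, 0.55 to 0.84 for KU55933 against WT, 0.05 to 0.36 between them, -1.78 to 0.24 for the genotype under RP105, -0.79 to -0.48 and -3.27 to -1.25 for RP105 against anti-CD40/IL4 in libraries labelled WT and ATM-deficient, and -2.67 to -0.65 for the interaction. The share of the constant part outside switch regions differed by 17.0 to 20.4, 7.12 to 10.6 and 8.33 to 11.9 points for ATM-deficient against WT, KU55933 against WT and ATM-deficient against KU55933, with exact permutation p of 0.0667 or 0.1, since fewer libraries allow no smaller p. With the replicate block the 7 log2 differences were 0.92, 0.72, 0.21, -0.24, -0.60, -1.76 and -1.16, and no call changed. The correlations of same-numbered libraries ran from -0.516 to 0.418, and no comparison had all of its pairs above 0.1, so the numbers were not taken to pair the libraries. Junctions per library limit the precision throughout: 0 to 15 members per RP105 library and 6 to 12 per WT library under anti-CD40/IL4.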
